A study of Cavia porcellus with 24 samples.

Results

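Manf (ENSCPOG00000006177), the gene of mesencephalic astrocyte-derived neurotrophic factor, was followed animal by animal in carotid artery endothelial RNA of Hartley guinea pigs. It is 1 gene of 18149 in the expression table, and it was chosen because it differed between 2 of the 8 groups, PC-C and PC-H. Its values in those groups, and every contrast that holds their animals, are therefore given as a description without a test. The table holds 24 animals, 3 in each group. The F0 dams were fed ad libitum (prenatal control, PC) or 70% of that amount from before mating until mid gestation, followed by a milder restriction to the end of lactation (prenatal restriction, PR). F1 offspring received a control diet (C, 13% of energy from fat) or a high-fat diet (H, 38% of energy from fat) from 8 weeks of age for 12 weeks, giving the groups PC-C, PC-H, PR-C and PR-H. An exception, per the study's notes, was PC-H animal 34, given a mix of both diets late in this period. F1 females kept on control diet were bred to unrelated males, and their F2 young were fed in the same way, giving PC-C-C and PR-C-C on the control diet and PC-C-H and PR-C-H on the high-fat diet. All tissue was taken at 20 weeks of age by flushing the carotid lumen with a lysis reagent. The F2 young of the PC line came from few F1 dams, and the labels do not say which animals shared a litter, so p-values measure the spread between these animals and not between litters.

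The endoplasmic reticulum (ER) folds secreted and membrane proteins. When unfolded protein builds up there, sensors in the ER membrane start the unfolded protein response, which raises the transcripts of ER chaperones and of factors that clear misfolded protein. Manf is a small soluble ER protein that binds the chaperone BiP, is partly secreted, and is a widely used transcript readout of this response. In arterial endothelium the unfolded protein response is known to be engaged by excess lipid and by disturbed flow.

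Libraries held 14061522 to 31148123 reads counted to genes (median 25618572), and values are normalised read counts, that is, reads divided by a size factor for each library. Each library was scored on the genes called between PR-C and PR-C-C (limma, adjusted p under 0.05), mean of higher minus mean of lower genes. The split of PR-C-C from PR-C on this score was fixed by that choice. A total of 6 libraries stood apart (2.36 to 2.98) from the other 18 (-0.82 to -0.23). These were PR-C-C animals 41, 47 and 58, PC-C-C animals 54 and 55 and PC-C-H animal 51. All 3 PR-C-C libraries and none of the PR-C-H libraries were among them, so diet and this division cannot be told apart in that arm. PC-C-H animal 51 is not in the study's list of animals and correlated least with the rest (median r 0.84 against 0.94 to 0.97 for the other 23). It was left out of the tests, and its values are given beside the others. None of the 8 listed endothelial markers could be paired with an identifier, so the tissue label was not checked against them. In bulk RNA, fewer cells of a type and less RNA per cell cannot be told apart.

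Manf was well covered in every animal, with 1462 to 4555 reads in a library, so that the counting error of 1 library was at most 2.62% of its value. The PC-C animals 13, 27 and 28 had normalised counts of 2018, 1676 and 2181 (1958 ± 258, SD, n = 3). The PC-H animals 11, 21 and 34 had 3611, 4101 and 4117 (3943 ± 287, SD, n = 3). All PC-H animals lay above all PC-C animals, and 6.81% of the 13224 genes tested were higher without overlap in this contrast, which is the one that chose the gene. The PR-C animals 17, 25 and 36 had 2457, 3163 and 2191 (2604 ± 503, SD, n = 3). The PR-H animals 16, 23 and 31 had 3759, 2345 and 3743 (3282 ± 812, SD, n = 3). Animals 16 and 31 of PR-H were thus at the PC-H level and animal 23 was inside the PR-C range.

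In F2, the PC-C-C animals 52, 54 and 55 had Manf counts of 2894, 1857 and 1890 (2214 ± 589, SD, n = 3). The PC-C-H animals 50 and 53 had 2298 and 2580 (2439 ± 199, SD, n = 2). PC-C-H animal 51 had 2127, and with it the group had 2335 ± 229 (SD, n = 3). Animal 52 was the highest of its group and the only PC-C-C library not among those that stood apart. The PR-C-C animals 41, 47 and 58 had 3067, 2671 and 2995 (2911 ± 211, SD, n = 3). The PR-C-H animals 43, 46 and 59 had 2684, 2648 and 3037 (2790 ± 215, SD, n = 3). The 2 groups of the PR line in F2 covered nearly the same range.

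**Figure D1:**
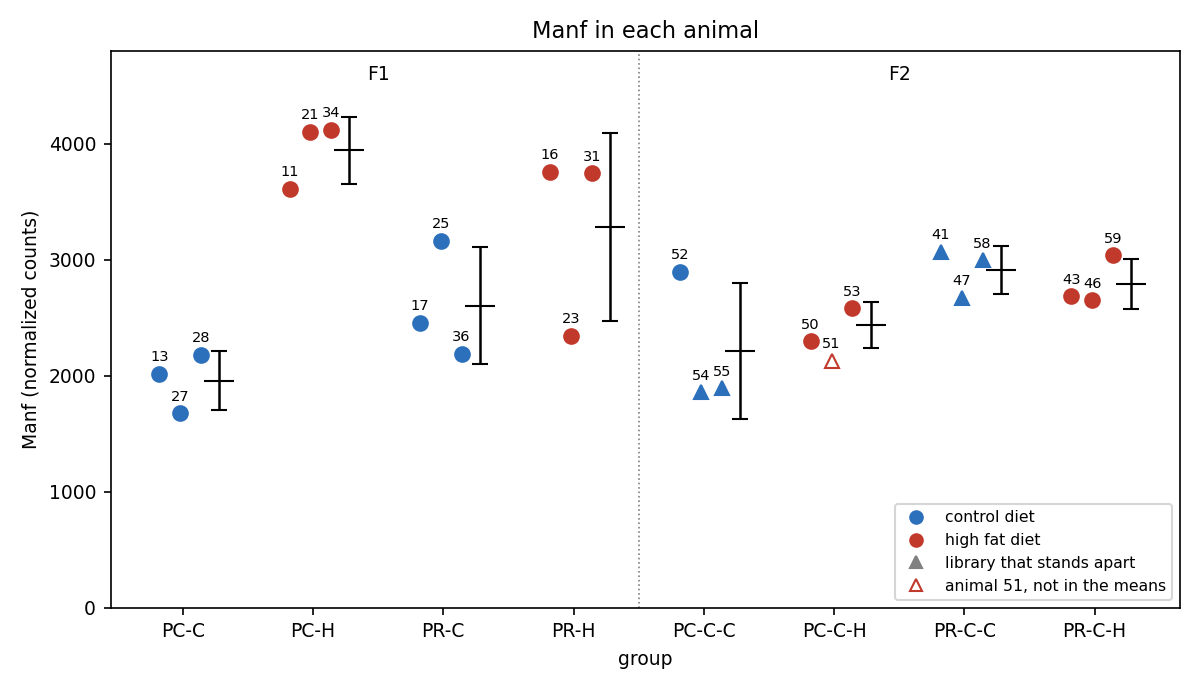
Normalised read count of Manf in each animal of the 8 groups, with group means and SD beside the points. Triangles are libraries that stood apart, and the open one is animal 51, not in the mean. The 3 PC-H animals sit between 3611 and 4117 and 2 PR-H animals at 3743 and 3759, while the highest of the F2 animals has 3067.

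The highest mean was that of PC-H, followed by PR-H, PR-C-C and PR-C-H, then by PR-C and PC-C-H, and last by PC-C-C and PC-C. Each of the 7 neighbouring pairs in this order overlapped in range, and each difference of means was smaller than the larger SD of the pair. The largest step was between PC-H and PR-H, 661 counts against an SD of 812. The lowest and the highest F1 groups therefore bracket all F2 means. The spread differed among groups, from an SD on the log2 scale of 0.11 in PR-C-C to 0.39 in PR-H. Within groups, the residual SD of Manf on the log2 scale was 0.24, and 65.9% of the 1651 genes of similar level had a smaller one.

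The first question was whether the high-fat diet moved Manf. In the contrast that chose the gene, PC-H exceeded PC-C by 1.02 on the log2 scale (SE 0.19), a 2.02-fold difference of geometric means. Of all genes tested, 3.64% had a higher log2 fold change there. In PR animals of F1, PR-H exceeded PR-C by 0.32 (SE 0.19), a 1.25-fold difference with a 95% interval of 0.95 to 1.64, and did not pass the test (limma, adjusted p = 1). In this comparison limma called 0.0227% of all genes tested in either direction, edgeR 0.00756% and DESeq2 0.0884%. Without PR-H animal 23 the difference was 0.54, the largest value on leaving out 1 animal, and still was not called. In the F2 PC line, PC-C-H exceeded PC-C-C by 0.17 (SE 0.21), 1.12-fold with an interval of 0.83 to 1.52 (limma, adjusted p = 0.937), where limma and edgeR called 0.00756% of genes and DESeq2 0.271%. Without PC-C-C animal 52 this difference was 0.38. In the F2 PR line, PR-C-H was 0.96-fold of PR-C-C, with an interval of 0.73 to 1.26 (log2 difference -0.06, SE 0.19, limma adjusted p = 0.918), where limma called 2.61% of genes, edgeR 2.26% and DESeq2 3.81%.

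Over these 3 arms, 17 animals that played no part in choosing the gene, the mean diet response of Manf was 0.14 on the log2 scale (SE 0.11), 1.10-fold with a 95% interval of 0.94 to 1.30. It was not called (limma, adjusted p = 0.573), while 2.19% of all genes were, as were 2.03% with edgeR and 3.73% with DESeq2. An exact two-sided permutation test that exchanged diet labels within each arm gave p = 0.289, where the smallest p that its 4000 arrangements can give is 0.00025. The upper end of the interval lay below the 2.02-fold difference seen between PC-C and PC-H. Choosing the gene on that difference can raise it, so no conclusion is drawn from this. The difference between those arms and the PC-C against PC-H contrast itself was not tested, because that contrast chose the gene. With a term for the libraries that stood apart, the mean response was -0.21 and the PC-C-C against PC-C-H response was -0.25, so their direction turned, and neither was called.

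**Figure D2:**
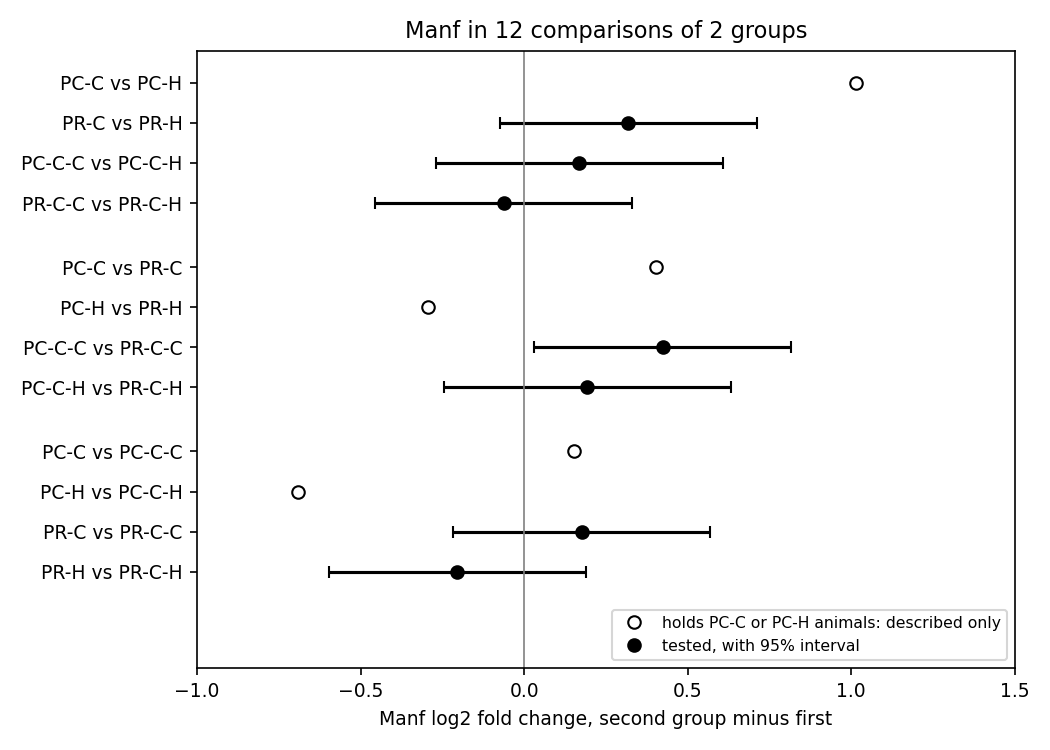
Log2 fold change of Manf in 12 comparisons of 2 groups, second group minus first. Filled points carry a 95% interval from limma, open points hold PC-C or PC-H animals and are described only. The value of 1.02 for PC-C against PC-H lies to the right of every other point, and the interval of PC-C-C against PR-C-C is the only one that leaves out 0, with an adjusted p of 0.982.

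Genes of lipid handling are given beside Manf as a description, since the study singled them out for differing with diet. It named Abcg1 in the diet comparison of every arm, and Scd1 in those of both F1 arms. Abcg1, which exports cholesterol from cells, had counts of 87 to 658 in PR-C and 2714 to 3268 in PR-H, 157 to 360 in PC-C-C and 2292 to 2500 in PC-C-H, and 199 to 278 in PR-C-C and 2375 to 3114 in PR-C-H. Scd1, the desaturase that makes monounsaturated fatty acids, had 181 to 368 and 1308 to 1362, 235 to 512 and 579 to 897, and 149 to 350 and 778 to 1224 in the same groups. Both were higher on high-fat diet without overlap in each arm, as were 4.76%, 12.5% and 12.8% of all genes in the 3 arms in that order. PR-H animal 23, whose Manf count was 2345, had an Abcg1 count of 2714, against 3268 and 2870 in PR-H animals 16 and 31. The study named Abcg1 for differing with diet in this arm as well, so its level in animal 23 is not independent of that choice. The reason for the low Manf of that animal was not tested.

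The second question was whether the ration of the F0 dam moved Manf. On control diet in F1, PR-C exceeded PC-C by 0.40 on the log2 scale (SE 0.19, 1.32-fold), and the lowest PR-C animal (2191) was just above the highest PC-C animal (2181). In this contrast 3.99% of genes were higher without overlap. On high-fat diet in F1 the direction was the opposite, with PR-H at 0.81-fold of PC-H (log2 difference -0.30, SE 0.19) and overlapping ranges. These 2 values rest on the animals that chose the gene, and no test was made of them. Without PR-H animal 23 the second one was -0.07.

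In F2 the ration of the granddam could be tested. On control diet PR-C-C exceeded PC-C-C by 0.42 (SE 0.19), 1.34-fold with an interval of 1.02 to 1.76. The unadjusted p was 0.0357 and the adjusted p 0.982 in limma, and the ranges overlapped through PC-C-C animal 52. Without that animal the difference was 0.63, also not called. In this contrast 4.65% of all genes had an unadjusted p under the threshold of 0.05. After adjustment, limma and edgeR called 0% of all genes and DESeq2 called 0.122%, which did not include Manf. On high-fat diet both PC-C-H animals lay below all 3 PR-C-H animals, a difference of 0.19 (SE 0.21, limma adjusted p = 1), 1.14-fold with an interval of 0.84 to 1.55. In that contrast 9.84% of all genes were higher without overlap, 2.19% had an unadjusted limma p under 0.05, limma and edgeR called 0% and DESeq2 0.0884%. The smallest p that an exact permutation test of 3 animals against 2 can give is 0.1. The diet response did not differ detectably between the PR and PC lines of F2 (interaction -0.23, SE 0.28, limma adjusted p = 1), where 0% of genes were called by limma and edgeR, 2.64% had an unadjusted p under 0.05, and DESeq2 called 0.149%.

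The third question was the difference between generations. In the PR line, PR-C-C exceeded PR-C by 0.18 (SE 0.19), 1.13-fold with an interval of 0.86 to 1.48 (limma, adjusted p = 0.705), where limma called 2.28% of genes, edgeR 1.87% and DESeq2 3.60%. PR-C-H was 0.87-fold of PR-H with an interval of 0.66 to 1.14 (log2 difference -0.20, SE 0.19, limma adjusted p = 1). Limma and edgeR called 0% of genes there, 2.06% had an unadjusted p under 0.05, and DESeq2 called 0.0497%. Without PR-H animal 23 this difference was -0.43. The diet response in the PR line was smaller in F2 than in F1 by 0.38 on the log2 scale (interaction -0.38, SE 0.27, limma adjusted p = 0.713), where limma called 0.0756% of genes, edgeR 0.106% and DESeq2 0.867%, so that a difference between generations was not shown. All PR-C-C libraries and no PR-C library stood apart, on a score built from the contrast of these groups. Their split was therefore fixed beforehand, and generation and that division cannot be told apart on control diet. With a term for the division the PR-C against PR-C-C difference was 0.80 and the interaction -1.01, and neither was called. In the PC line, PC-C-C was 1.11-fold of PC-C (0.15 on the log2 scale, SE 0.19) and -0.06 on the log2 scale without PC-C-C animal 52. PC-C-H was 0.62-fold of PC-H (log2 difference -0.69, SE 0.21), and all PC-C-H animals lay below all PC-H animals, as did 15.4% of all genes. Over the 10 tested comparisons Manf passed the adjusted threshold in 0 with limma, edgeR or DESeq2, and had an unadjusted p under 0.05 in 1 with limma.

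**Figure D3:**
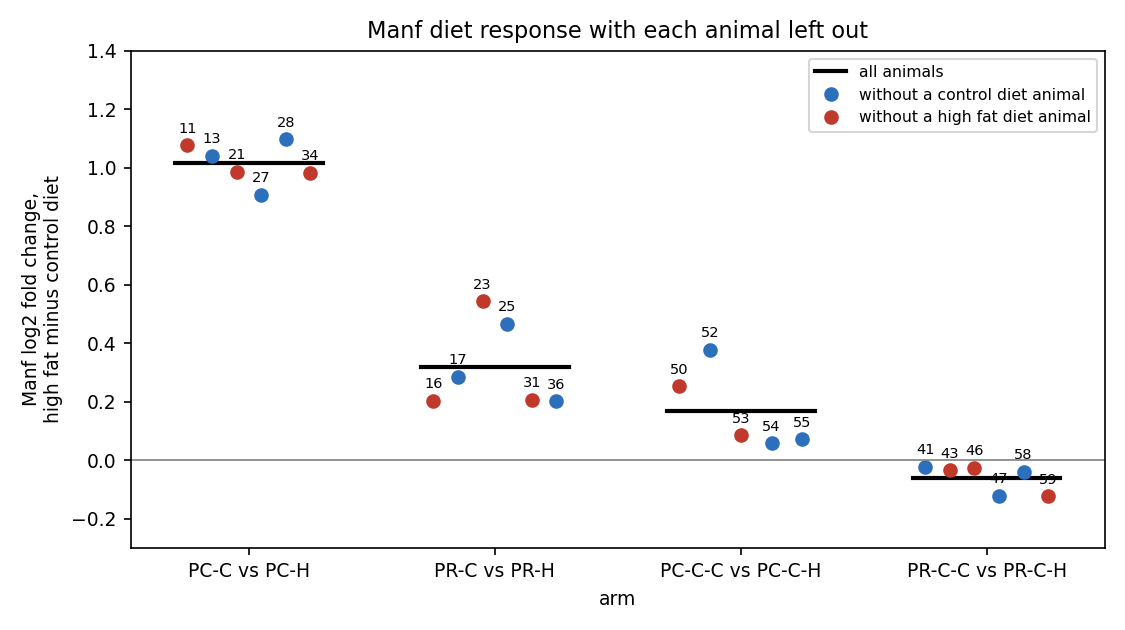
Log2 fold change of Manf between high-fat and control diet in the 4 arms, with every animal of the compared groups left out in turn, beside the value with all animals. PC-C against PC-H stays between 0.91 and 1.10, while PR-C against PR-H moves between 0.20 and 0.54.

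Of the 42 ER stress genes listed, 4 could be paired with an identifier, namely Manf, Xbp1, Dnajb11 and Tusc3, and the study had picked all of them on PC-C against PC-H. The chaperone gene Hspa5 and the stress factors Atf4 and Ddit3 were not analysed here. Xbp1 encodes the transcription factor that is made active by splicing of its messenger in the unfolded protein response, and gene-level counts do not separate the spliced form. Its counts were 4850, 4863 and 4289 in PC-C and 6367, 6642 and 6653 in PC-H. All PC-H animals were higher, with a log2 difference of 0.49 (SE 0.14). Dnajb11, an ER co-chaperone of BiP, had counts of 2040, 2233 and 1880 in PC-C and 2528, 3134 and 3064 in PC-H, also without overlap (0.50, SE 0.14). Tusc3, a subunit of the complex that attaches sugar chains to new ER proteins, had 1262, 1441 and 1346 in PC-C and 1881, 1575 and 1839 in PC-H (0.38, SE 0.11). Manf showed the largest log2 difference of the 4.

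In the other 3 arms none of the 3 ER genes was called with diet. PR-H exceeded PR-C in Dnajb11 without overlap (3180, 2824 and 3259 against 2514, 2758 and 2221), a log2 difference of 0.31 (SE 0.14, limma adjusted p = 1), where 4.76% of all genes were higher without overlap. Xbp1 ranged from 3942 to 6303 in PR-C and from 5127 to 6504 in PR-H, so these groups overlapped (0.17, SE 0.14, limma adjusted p = 1). Over the 3 arms the mean diet response on the log2 scale was 0.06 for Dnajb11, 0.03 for Xbp1 and -0.07 for Tusc3, with limma adjusted p-values of 0.791, 0.884 and 0.627. In the contrast of PR-C-C with PC-C-C, Xbp1 was higher without overlap (5963 to 6528 against 4867 to 5053), by 0.33 on the log2 scale (SE 0.14, limma adjusted p = 0.982), and 6.11% of all genes were higher without overlap. In that contrast the PR-C-C libraries all stood apart, as did PC-C-C animals 54 and 55, and the part of this division in the result was not tested. Against the direction of the contrast that chose them, Xbp1 was lower without overlap in PR-C-H than in PR-C-C, as were 13.6% of all genes. Tusc3 was lower without overlap in PC-C-H (1313 and 1355) than in PC-C-C (1383 to 1606), as were 12.7% of all genes. Over 30 tests of the 3 genes in 10 comparisons, 0 passed the adjusted threshold with limma, edgeR or DESeq2. An unadjusted limma p under 0.05 was found in 4, of which 3 were of Dnajb11 and 1 of Xbp1. Those of Dnajb11 were PR-C against PR-H, PR-C against PR-C-C and the PR interaction of generation and diet. In these, 3.24%, 15.8% and 9.57% of all genes had an unadjusted limma p under 0.05. That of Xbp1 was PC-C-C against PR-C-C, where 4.65% of all genes did.

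Whether Manf moved with its partner genes from animal to animal was examined over the 17 animals outside PC-C and PC-H. Correlations were computed on log2 counts with 17 partners from the ER, folding and lipid lists, with permutation p-values adjusted over the 17. All 17 could be named only through the study's list of genes differing between PC-C and PC-H, the contrast that chose Manf. With Xbp1 the Pearson r was 0.72 (permutation p = 0.000970, adjusted 0.0055) and the Spearman rho 0.77 (permutation p = 0.000490, adjusted 0.0042). Without the 2 animals farthest from the median of Xbp1 the r was 0.77. With Dnajb11 the r was 0.58 (permutation p = 0.0146, adjusted 0.0275) and the rho 0.59 (permutation p = 0.0155, adjusted 0.0441), and without its 2 farthest animals the r was 0.52. With Tusc3 the r was -0.03 (permutation p = 0.912, adjusted 0.912) and the rho -0.01 (permutation p = 0.959, adjusted 0.959), and without its 2 farthest animals the r was -0.04. Of the 3 ER partners, Xbp1 and Dnajb11 thus varied with Manf over the 17 animals, and Tusc3 did not detectably do so. Labels were exchanged over all 17 animals, so differences between group means count in these p-values. With centred values and labels exchanged within groups, Xbp1 had adjusted permutation p-values of 0.078 for r and 0.0886 for rho.

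**Figure D4:**
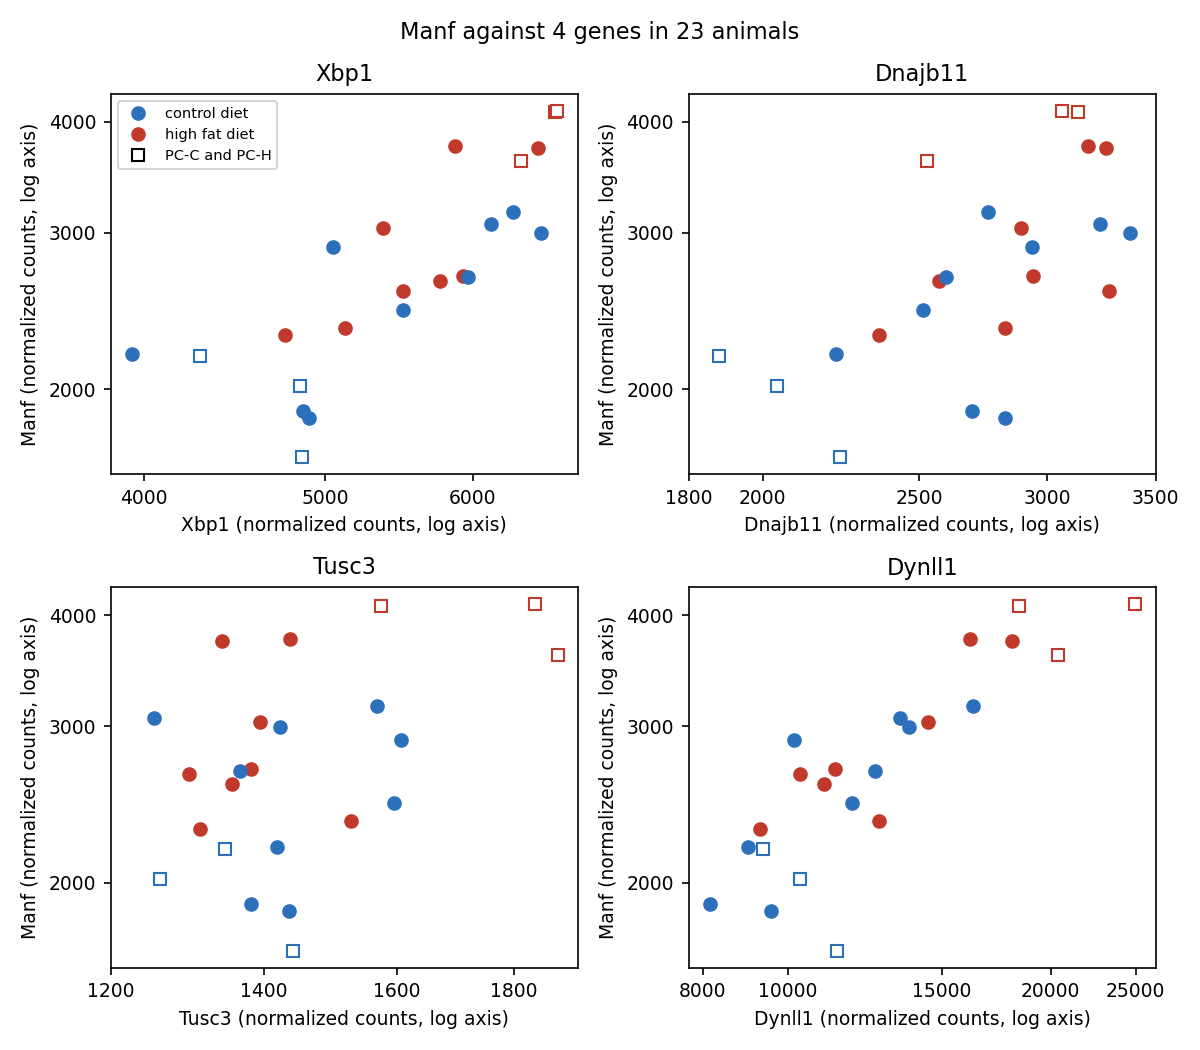
Normalised read count of Manf (vertical, log axis) against that of Xbp1, Dnajb11, Tusc3 and Dynll1 (horizontal, log axes) in 23 animals, coloured by diet, with PC-C and PC-H animals as open squares. Over the 17 animals shown as filled points r is 0.72 for Xbp1, 0.58 for Dnajb11, -0.03 for Tusc3 and 0.87 for Dynll1.

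Among the 10 named cytosolic and mitochondrial folding genes, Chchd4 had the highest and Cct3 the lowest correlation with Manf. Chchd4, an oxidoreductase of the mitochondrial intermembrane space that folds imported proteins, had r = 0.79 (permutation p = 0.000260, adjusted 0.0044), rho = 0.84 (permutation p = 0.000110, adjusted 0.0019) and r = 0.76 without its 2 farthest animals. Cct3, a subunit of the cytosolic chaperonin, had r = 0.28 (permutation p = 0.272, adjusted 0.33), rho = 0.35 (permutation p = 0.169, adjusted 0.239) and r = 0.18 without its 2 farthest animals. In all, 9 of 17 partners had an adjusted p of r under 0.05, 7 of them folding genes, and 6 of 17 had an adjusted p of rho under 0.05. The lowest r among the 9 was 0.58, and 3.70% of 11229 genes with a mean count of at least 50 had an r with Manf that was at least as high. That share is over all these genes and not over genes chosen on PC-C against PC-H, as the partners were. The 133 named genes, chosen that way, had a median r of 0.13, against 0.0056 over all 11229. For Cct2, Hspa8 and Dnajb1, r fell from 0.58, 0.63 and 0.65 to 0.10, 0.36 and 0.38 without the 2 farthest animals. These r thus depended in part on the animals left out. On group-centred values r was 0.35 for Cct2, 0.36 for Hspa8 and 0.72 for Dnajb1. Of the lipid genes, Scd1 had the highest r (0.42, permutation p = 0.0948, adjusted 0.134, rho = 0.35, permutation p = 0.164, adjusted 0.239) and Abcg1 the lowest (0.18, permutation p = 0.487, adjusted 0.517, rho = 0.08, permutation p = 0.751, adjusted 0.851). Without the 2 farthest animals these were 0.50 and 0.20.

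Centring on the group means lowered the number of partners under the threshold. With each value centred on its group mean and labels exchanged within groups, r was 0.62 for Xbp1 (permutation p = 0.0215, adjusted 0.078), 0.61 for Dnajb11 (permutation p = 0.0018, adjusted 0.0314) and 0.74 for Chchd4 (permutation p = 0.0275, adjusted 0.078). By r, Dnajb11 was then the only partner of 17 under the adjusted threshold, and 7.28% of the 11229 genes had an r at least as high. By rho, Dnajb11 and Timm13, a chaperone of the mitochondrial intermembrane space, were under it (adjusted permutation p = 0.0125 for each), and Timm13 had the highest centred r (0.85, adjusted permutation p = 0.0552). Over the 12 animals left without the libraries that stood apart, r was 0.73 for Xbp1 (permutation adjusted p = 0.039), 0.72 for Dnajb11 (permutation adjusted p = 0.039) and 0.75 for Chchd4 (permutation adjusted p = 0.039), and 6 of 17 partners were under the threshold by r, where 5.33% of genes had an r at least as high as the lowest of them. By rho only Chchd4 was under it (adjusted permutation p = 0.0406), with 0.0604 for Xbp1 and 0.0739 for Dnajb11. The direction with Abcg1 turned on centring (-0.48), as it did with Mylip (-0.32) and Tusc3 (0.21).

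**Figure D5:**
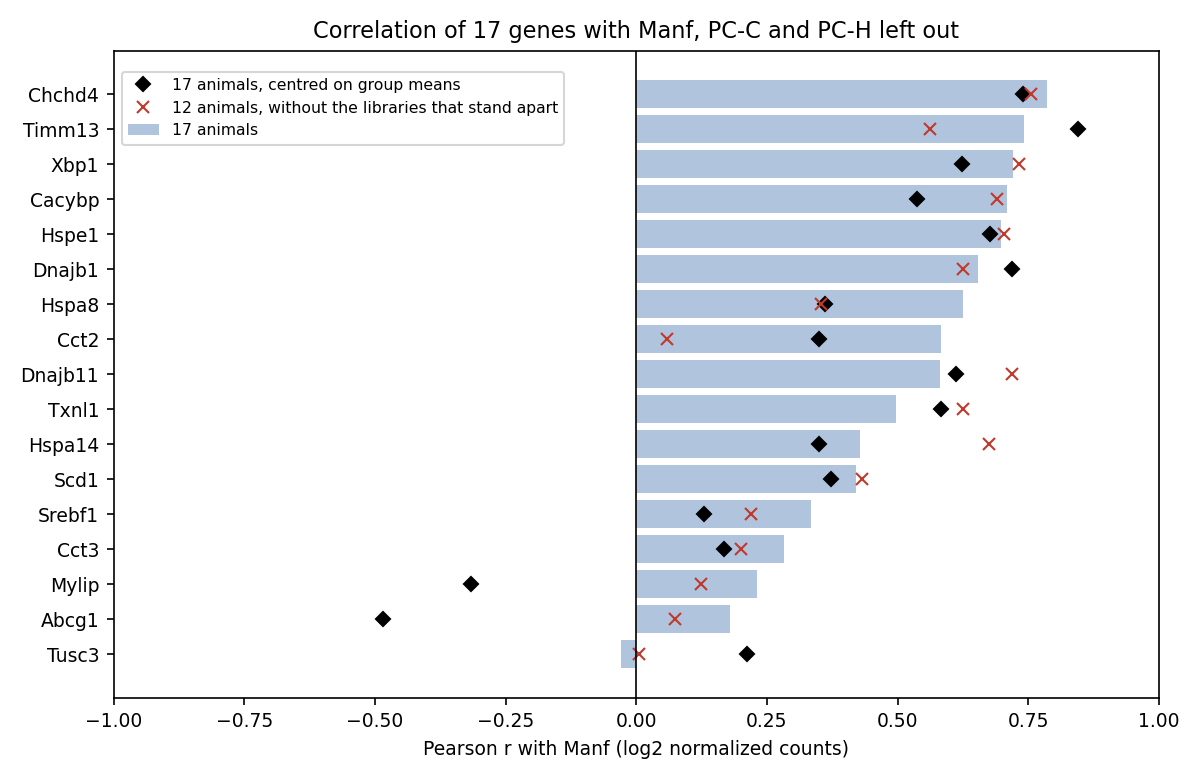
Pearson r of log2 counts with Manf for 17 partner genes over the 17 animals outside PC-C and PC-H (bars), on group-centred values (diamonds) and over the 12 animals that did not stand apart (crosses). Chchd4 (0.79) is highest and Tusc3 (-0.03) lowest, and Abcg1 lies at -0.48 on centred values.

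Genes whose pattern was most like that of Manf were ranked by r over the same 17 animals among 11229 genes with a mean count of at least 50, as a description. The points share libraries and size factors. The median r was 0.0056, with 5% of genes under -0.48 and 5% above 0.54, and 11 genes were above 0.8. Dynll1, a light chain of the dynein motor, was first with 0.87 (0.63 on group-centred values of 23 animals). Its counts were 16186, 12713 and 18077 in PR-H animals 16, 23 and 31, so that animal 23 was the low one for Dynll1 as for Manf. The next 4 identifiers, none of which could be named, were ENSCPOG00000003107 (0.85, centred 0.62), ENSCPOG00000031147 (0.84, centred 0.72), ENSCPOG00000001542 (0.83, centred 0.76) and ENSCPOG00000033733 (0.82, centred 0.73). Among named genes, Dynll1 was followed by Chchd4 (0.79, centred 0.60) and Ube2a, a ubiquitin-conjugating enzyme (0.76, centred 0.59). Xbp1 ranked 79 and Dnajb11 416. The lowest named genes were Cntrl, which encodes the centrosome protein centriolin (-0.79, centred -0.46), Zc3hav1, an antiviral zinc-finger protein (-0.61, centred -0.28), and Zfyve26 (-0.61, centred -0.44).

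Cells that make much secreted protein, such as plasma cells, carry ER chaperone transcripts, so blood cell markers were read beside Manf. Of 13 leukocyte and B or plasma cell markers listed, 5 could be named (Siglec1, Samsn1, Pou2af1, Fcmr and Bach2). The names came from the study's list of genes differing between PC-C and PC-H. A difference of these 5 markers between those groups was therefore fixed by that choice. Their summed count was 11 to 61 in PC-C, 84 to 818 in PC-H, 39 to 56 in PR-C and 43 to 51 in PR-H. In F2 it was 104 to 123 in PC-C-C, 46 to 113 in PC-C-H, 93 to 149 in PR-C-C and 64 to 69 in PR-C-H. PC-H animal 34 held the highest sum, with Pou2af1 at 247 and Fcmr at 288, and per the study's notes it was given a mix of both diets late in the feeding period. PC-H animal 21 had a Manf count of 4101, almost that of animal 34, with Pou2af1 at 10, Fcmr at 9, Bach2 at 0, Siglec1 at 8.1 and Samsn1 at 56. The last 2 were above every PC-C animal (Siglec1 0 to 4.7, Samsn1 7.5 to 33). Without animal 34 the PC-C against PC-H difference of Manf was 0.98 on the log2 scale. The part of blood cells in the Manf values was not tested.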

How the data were processed

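Polyadenylated RNA of the flushed carotid lumen was sequenced from 24 animals. The deposited values are normalised read counts per gene, a signal that the authors made by trimming, STAR alignment and division of gene counts by DESeq2 size factors. Aligner settings and the genome build are not given in the sources used here. All values were whole reads times a library factor (100% within a tolerance of 0.01), so reads were recovered and size factors recomputed. Libraries held 14061522 to 31148123 reads. PC-C-H animal 51 was left out of tests. Groups were compared with limma 3.58.1 (R 4.3.3) with a trend on log2(normalised count + 1) over 13224 genes with a mean of at least 10 in 23 animals, 8 group means in 1 model, and Benjamini-Hochberg adjustment over all genes at 0.05, so fold changes are on that scale. edgeR 4.0.16 and DESeq2 1.42.0 on the recovered reads were alternatives. Correlations and exact tests used Python 3.11.15 with scipy 1.17.1 and 100000 resamples, or all arrangements.

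Scripts were tested on simulated data. Manf, its lists and the tests were chosen with earlier results of these data known. No symbols accompany the identifiers in the table: 147 pairs were read from the study's list of genes differing between PC-C and PC-H, and 0 identifiers matched the reference gene table. Named genes were Manf, every ER list member that could be named, the folding and lipid members with the highest and lowest correlation with Manf, the 5 genes most like Manf, and the 3 highest and 3 lowest named ones; Srebf1, Mylip, Timm13, Dnajb1, Hspa8 and Cct2 were added after their values were seen, as members of these lists. Alternatives were TMM scaling, pseudocounts of 0.1 and 10, no filter, only the groups compared, animal 51 included, sex, array weights, a term for the libraries that stood apart (chosen from the data), and leaving out each animal. Sequences and coordinates were not used here.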

Additional observations from a re-analysis of the deposited data

Results flagged for a closer look

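For 2 of the ER genes named beside Manf, all animals on high-fat diet lay above all on control diet in one arm and below them in another. For Xbp1 the PC-H animals exceeded the PC-C animals by 0.49 on the log2 scale, and the PR-C-H animals were under those of PR-C-C (-0.13). For Tusc3 the values were 0.38 in the same arm and -0.14 for PC-C-H against PC-C-C (with 2 animals in PC-C-H). In both genes the first arm is the one on which the study picked them, and the difference between arms was not tested. No difference of the second arm was called by limma (adjusted p = 0.721 for Xbp1 and 0.873 for Tusc3). In the PR-C-C against PR-C-H contrast, 13.6% of all genes were lower without overlap, and in the PC-C-C against PC-C-H contrast 12.7% were. All PR-C-C libraries stood apart and no PR-C-H library did, so diet and that division cannot be told apart for Xbp1 there. Manf itself did not show this pattern.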

How the results depend on the processing

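No tested Manf comparison was called under any of 11 alternatives or on leaving out an animal. Among tested comparisons only the term for the libraries that stood apart turned a direction: PC-C-C against PC-C-H became -0.25 and the mean diet response -0.21, and PC-C against PC-C-C moved to 0.57. Of the described contrasts, PC-C against PC-C-C turned to -0.0037 with array weights. The division term rests on PC-C-C animal 52 against 54 and 55 alone, and the cause was not tested. It also took PR-C-C against PR-C-H to -0.69, PR-C against PR-C-C to 0.80 and the PR generation interaction to -1.01, none called. The number of partners correlated with Manf under the adjusted threshold of r went from 9 to 1 on centring with labels exchanged within groups. There r was -0.48 for Abcg1, -0.32 for Mylip and 0.21 for Tusc3. It went to 17 partners over all 23 animals (Tusc3 0.45), which include those that chose the genes. Tusc3 had 0.0046 without the libraries that stood apart.

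Leaving out each animal gave log2 differences of 0.91 to 1.10 for PC-C against PC-H, 0.20 to 0.54 for PR-C against PR-H, 0.06 to 0.38 for PC-C-C against PC-C-H and -0.12 to -0.02 for PR-C-C against PR-C-H. Ranges were 0.25 to 0.52 for PC-C against PR-C, -0.41 to -0.07 for PC-H against PR-H, 0.31 to 0.63 for PC-C-C against PR-C-C and 0.11 to 0.28 for PC-C-H against PR-C-H. Between generations they were -0.06 to 0.26 for PC-C against PC-C-C, -0.78 to -0.61 for PC-H against PC-C-H, 0.06 to 0.32 for PR-C against PR-C-C and -0.43 to -0.09 for PR-H against PR-C-H. The F2 interaction ran from -0.44 to -0.12, the PR generation interaction from -0.61 to -0.26, and the mean diet response from 0.10 to 0.22. The sign of PC-C against PC-C-C turned without PC-C-C animal 52. No analysis paired by litter was possible because the labels do not say which animals were siblings. The study aimed to keep siblings off the same diet, and the tests do not take this into account. With 2 or 3 animals per group, the 95% interval of PR-C against PR-H ran from -0.07 to 0.71 on the log2 scale.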
